A study of Xenopus laevis with 8 samples.

Results

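The genes described here make the protein synthesis machinery of the frog *Xenopus laevis*: the eukaryotic initiation factors (eIF), the elongation factors (eEF) with their modifying enzymes, and the cytosolic tRNA synthetases. They were chosen by a rule on symbols, with earlier results of these data known. It took every probe set listed with 1 gene whose symbol begins with eif or eef and a digit or names a cytosolic synthetase. The oocyte protein 42sp43.L was included as well. This gave 143 of the 32635 probe sets on the array, standing for 87 genes. A probe set was kept when its log2 values averaged 4 or more in any group. This held for 132 of them, so that 83 of the 87 genes were among the 8219 genes tested. The genes eef1a2.S, eef1d.S, eif2ak1.L and eif2ak3.S had no probe set above that level, and for the other genes with a dim probe set a second one passed. *X. laevis* is allotetraploid, and .L and .S mark whether a copy lies on a long or a short chromosome. The files do not say whether a probe set binds the RNA of only 1 copy, and those listed with several genes were left out.

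Translation starts when eIF2 brings the initiator tRNA to the small ribosomal subunit, while eIF3 organises that subunit and eIF4F binds the mRNA cap and unwinds the leader. During elongation eEF1 delivers each aminoacyl-tRNA and eEF2 moves the ribosome along, and the synthetases charge every tRNA with its amino acid. Control acts mainly on eIF2, through kinases that phosphorylate it, and on eIF4E, through proteins that bind it. In the frog embryo much of this machinery is first inherited from the egg as maternal RNA and protein.

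RNA came from early neurulae that had been injected on one side with morpholinos and a fluorescent lineage tracer. In double morphants the morpholinos stopped protein synthesis from both xSuv4-20h mRNAs, whose products add further methyl groups to lysine 20 of histone H4 once it carries one, and control morphants received an unrelated control morpholino. Embryos were cut along the midline, and 6 injected or 6 uninjected sides of corresponding embryos were pooled per array. The 4 groups (injected and uninjected sides of each kind of morphant) had 2 arrays each, from 2 independent experiments given by the replicate number. The labels give 40 ng in a neighbouring pair of blastomeres. The methods give a single injected blastomere and another total: 40 ng of each xSuv4-20h morpholino, or as much control morpholino in all. Which site and dose hold for the arrays is not resolved. An uninjected side shared the embryo, the handling and the stage of its partner but contained no morpholino, and morpholinos that block translation leave no direct trace in RNA levels of their targets.

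All values below are the deposited expression values on the log2 scale, so a difference of 1 is a doubling. Array medians lay between 5.09 and 5.19, and 31.5% to 31.9% of the values of each array were under 2.5, not far above the lowest value of 2.14. Pools of whole sides held all germ layers. Markers at a mean of at least 4 numbered 6 of 7 genes for neural plate, 8 of 9 for epidermis, 6 of 6 for mesoderm and muscle, 4 of 4 for endoderm and 2 of 2 for cement gland. The neural plate list included nrp1.L, matched by symbol only and dim, with a mean of 3.64. Whether that symbol names the pan-neural marker Nrp1 of the study was not established. The summed cement gland markers agr2.L and agr2.S stood at 9.91 and 10.71 on the injected sides of double morphants, against 11.55 to 13.47 on the other 6 arrays. Neural plate markers summed to 12.70 to 13.24, epidermal markers to 14.89 to 15.62, mesodermal markers to 12.76 to 14.11 and endodermal markers to 13.56 to 13.92 over the 8 arrays. The mesodermal sums were not even. Injected sides of replicate 2 stood at 12.76 in control and 13.12 in double morphants, against 13.89 to 14.11 on the other 6 arrays. Those injected sides were also the lowest for neural plate, at 12.70 and 12.96. The part of such tissue differences in the results below was not tested. In such pools, fewer cells of a type and less RNA per cell cannot be told apart.

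The first comparison asked what differed between the injected and the uninjected sides of the same double morphants. Lower on the injected side were the tyrosyl- and leucyl-tRNA synthetases yars1.S and lars1.L, and eef1aknmt.S, which encodes the methyltransferase that modifies eEF1A (METTL13 in mammals). These 3 of 83 genes were called because their local fdr (local false discovery rate) was under 0.2. The local fdr is the estimated share of unchanged genes among genes with a similar moderated t statistic. No member was called higher at the probe sets used. Of all 8219 genes 1.62% were called, 0.633% higher and 0.986% lower, and nothing is read from a count as small as 3 against that share. Across the 83 genes the median log2 fold change was -0.06, against 0.03 over all genes tested, and 49 of 83 were negative. No member reached an adjusted p under 0.05, nor did any of the 8219 genes, while at an unadjusted p under 0.05 there were 6 members higher (7.23%, all genes 11.7%) and 12 lower (14.5%, all genes 9.51%). On the same arrays both cement gland genes were called lower, with a median of -3.12. The neural plate list, nrp1.L included, had a median of -0.37 with all 7 negative. The median was -0.34 for epidermis, with 1 of 8 called lower, 0.32 for mesoderm and muscle and -0.10 for endoderm.

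Because injected and uninjected pools came from corresponding embryos, the same comparison was also fitted with each pair of sides as a block. By local fdr the block left 1 of the 3 calls, eef1aknmt.S (1.13% of all genes were called). By adjusted p it gave more: 26 of 83 members had an adjusted p under 0.05, 8 higher and 18 lower. The share was 31.3%, against 28% of all genes. Higher members made up 9.64%, against 15.5% of all genes, and lower members 21.7%, where 1024 of all 8219 genes were lower. With the experiment as a block, 21 members had an adjusted p under 0.05 (25.3%, against 22.6% of all genes), and 0 members were called by local fdr (0.268% of all genes). The rule of a local fdr under 0.2 is used for every call below unless another is named.

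The synthetase yars1.S charges tRNA with tyrosine. On uninjected sides it stood at 6.98 and 7.06 in control morphants and at 6.996 and 7.60 in double morphants, and on injected sides at 6.51 and 6.81 in control morphants and at 5.85 and 5.99 in double morphants. The injected sides of double morphants were the lowest of the 8 arrays and did not overlap any other group. How often all genes tested showed such a separation was not counted, here or for the genes below. The log2 fold change between the sides of double morphants was -1.38 ± 0.24 (SE, n = 2 per group), a level 0.385 times that of the uninjected side (limma, adjusted p = 0.0887, local fdr 0.127). With the pairs as a block its adjusted p was 0.018 and its local fdr 0.512. All 4 probe sets of yars1.S were negative, from -0.83 to -1.38. When each of the 8 arrays was left out in turn, the call was kept 3 times. It was lost without either injected pool or replicate 2 of the uninjected pools of double morphants, and without either uninjected pool of control morphants.

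The leucyl-tRNA synthetase lars1.L belongs, in mammals, to the multi-synthetase complex. It stood at 7.77 and 8.09 on uninjected and 7.49 and 7.71 on injected sides of control morphants, then at 7.69 and 7.89 on uninjected and 6.74 and 6.77 on injected sides of double morphants. The injected sides of double morphants again lay below all other arrays. Its log2 fold change was -1.04 ± 0.19 (SE, limma adjusted p = 0.0887, local fdr 0.154), and 0.386 was its local fdr with the pairs as a block. Its call was kept in 2 of 8 omissions, those of the uninjected pools of control morphants. In control morphants these genes had log2 fold changes of -0.36 ± 0.24 for yars1.S and -0.32 ± 0.19 for lars1.L, which were not called.

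The glutaminyl-tRNA synthetase, another enzyme of the mammalian multi-synthetase complex, was measured from both chromosome copies. The copy qars1.S stood at 6.31 and 6.40 on uninjected and 6.20 and 6.33 on injected sides of control morphants, and at 6.14 and 6.44 on uninjected and 4.41 and 5.32 on injected sides of double morphants. Its log2 fold change of -1.43 ± 0.31 (SE, local fdr 0.386) was the lowest of the 83 genes and was not called here. Its adjusted p was 0.0183 with the pairs as a block. The second probe set of qars1.S gave -0.89, and the copy qars1.L gave -1.001 ± 0.42 at the probe set used. For qars1.L the groups overlapped, since 1 injected pool of control morphants (5.33) lay between the injected pools of double morphants (5.65 and 4.83).

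The tryptophanyl-tRNA synthetase wars1.L had a log2 fold change of -1.03 ± 0.32 in double morphants and 0.12 ± 0.32 in control morphants, and was not called in either. Its injected sides of double morphants, at 4.83 and 5.39, were the lowest of the 8 arrays. Among the 20 synthetases the median was -0.23 in double morphants, with 13 of 20 negative (65%) and 2 called lower. Over all genes the median was 0.03, with 47.2% negative and 0.986% called lower. In control morphants the median was -0.07, again with 13 negative values. For the difference between these injection effects, double minus control morphants, the median was -0.05 (all genes 0.02). There 11 of 20 were negative (55%, all genes 48.4%) and 2 were called lower (all genes 1.96%). At the upper end stood nars1.L (asparagine), named after its values were seen, with 0.66, and mars1.S (methionine), with 0.65 ± 0.25 and injected sides of double morphants at 7.24 and 7.41 above all other arrays (6.07 to 6.71). The brightest synthetase signal was that of tars1.L (threonine), with -0.08 ± 0.15, and the lysyl enzyme had -0.09 (kars1.L) and -0.23 (kars1.S).

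**Figure D1:**
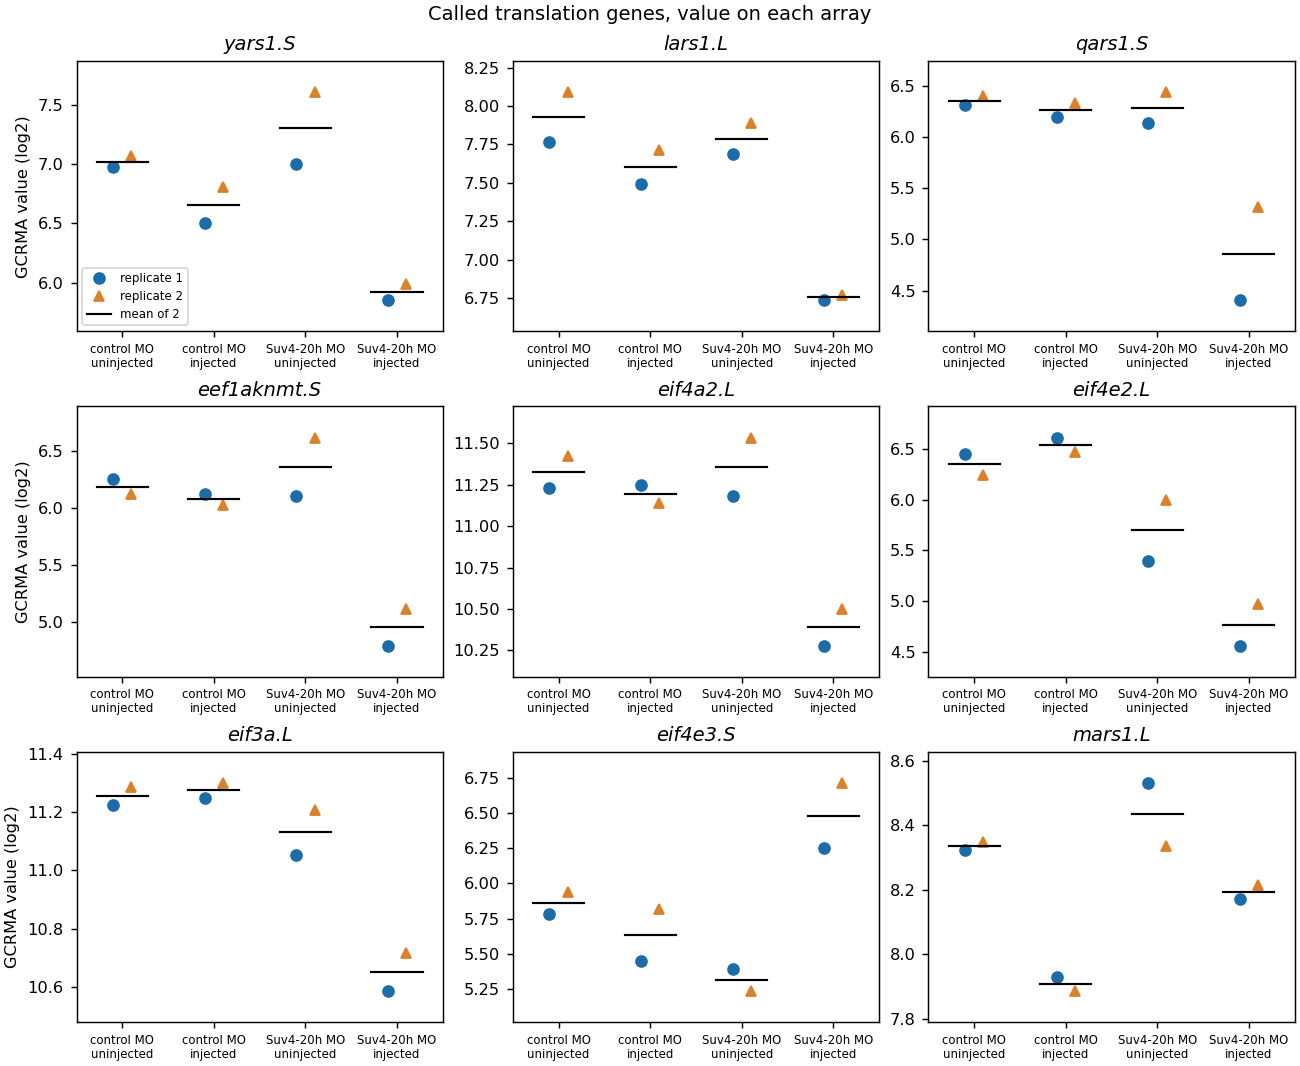
Deposited log2 values (GCRMA, vertical axes differ between panels) of the 9 translation genes called in at least 1 of the 5 comparisons, on each of the 8 arrays. Circles are replicate 1, triangles replicate 2, and bars the mean of 2 arrays. In 7 panels the injected sides of double morphants are the lowest, in eif4e3.S they are the highest, and in mars1.L the injected sides of control morphants are the lowest. The genes were chosen by calls on these same arrays, so these positions are not separate evidence.

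Among enzymes that modify elongation factors, eef1aknmt.S had the lowest local fdr of all members in double morphants. It stood at 6.25 and 6.12 on uninjected and 6.12 and 6.03 on injected sides of control morphants. In double morphants it stood at 6.11 and 6.62 on uninjected and at 4.79 and 5.12 on injected sides, which did not overlap any other group. The log2 fold change was -1.41 ± 0.23 (SE, limma adjusted p = 0.0846, local fdr 0.059), a level 0.375 times that of the uninjected side. As a pair-blocked value the adjusted p was 0.0173 and the local fdr 0.0531, and with the experiment as a block 0.0181 and 0.694. The call was kept in 7 of 8 omissions and lost without replicate 1 of the injected sides of double morphants. The lysine methyltransferase eef1akmt1.S, which also acts on eEF1A, had -0.61 ± 0.38, and eef2kmt.L, which methylates eEF2 and was named after its values were seen, had -0.21.

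The elongation factors themselves were not called in any of the 5 comparisons at the probe sets and settings used throughout. The 8 genes tested were grouped by symbol and include eef1e1.L, which is not itself an elongation factor. Of the 8, 5 were negative and 3 positive in double morphants, with a median of -0.04. The brightest signal was that of eef1a1o.S, the oocyte form of eEF1A that carries aminoacyl-tRNA to the ribosome, with -0.35 ± 0.21, and its copy eef1a1o.L had 0.02 ± 0.34. The translocase gene eef2.1.L, picked out after its values were seen, stood at 13.09 and 13.00 on uninjected and 13.10 and 12.93 on injected sides of control morphants. In double morphants it stood at 13.08 and 13.09 on uninjected and 12.51 and 12.29 on injected sides, below all other arrays. Its 3 probe sets above the filter agreed, with log2 fold changes of -0.51 to -0.69. Blocking on the pairs gave an adjusted p of 0.0241 and a local fdr of 0.902. In the fit of all probe sets, 2 of the 3 had a local fdr under 0.2 in the difference between the injection effects (0.109 and 0.1996, with 3.02% of all probe sets called) and between the injected sides (0.0708 and 0.170, with 5.79% called). With an intensity trend in the variance eef2.1.L was called in double morphants, in the difference and between the injected sides.

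Of the 14 genes of cap binding and unwinding 7 were positive and 7 negative in double morphants, from -0.97 to 1.17, and none was called in this comparison. The RNA helicase of eIF4F, eif4a2.L, stood at 11.23 and 11.42 on uninjected and 11.25 and 11.14 on injected sides of control morphants, and at 11.18 and 11.54 on uninjected and 10.28 and 10.50 on injected sides of double morphants. Both injected pools of double morphants lay below all others, and the log2 fold change was -0.97 ± 0.20 (SE, limma adjusted p = 0.100, local fdr 0.270). The scaffold eif4g1, likewise singled out after its values were seen, had -0.47 in copy L and -0.46 in copy S, with 2 probe sets of each copy negative. The exon junction helicase eif4a3.1.S had 0.01 ± 0.15.

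The highest positive values were those of an eIF4E-binding protein and of a relative of eIF4E. The protein 4E-T, encoded by eif4enif1, takes eIF4E into the nucleus and into processing bodies. Its copy eif4enif1.S stood at 8.45 and 8.84 on uninjected and 8.69 and 9.22 on injected sides of control morphants, and at 8.93 and 8.45 on uninjected and 9.88 and 10.27 on injected sides of double morphants. The injected sides of double morphants were above all other arrays, with a log2 fold change of 1.38 ± 0.29 (SE, limma adjusted p = 0.102, local fdr 0.447), the highest of the 83 genes and not called. Its adjusted p was 0.0246 with the pairs as a block, and its local fdr 0.933. The copy eif4enif1.L had 0.25 ± 0.17, and the inhibitor eif4ebp2 had -0.06 (L) and -0.31 (S).

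The divergent cap-binding protein eif4e3.S stood at 5.79 and 5.94 on uninjected and 5.45 and 5.81 on injected sides of control morphants. In double morphants it was at 5.39 and 5.24 on uninjected and 6.25 and 6.71 on injected sides, the highest of the 8 arrays. The log2 fold change of 1.17 ± 0.23 was not called in double morphants (local fdr 0.335). This was measured on the probe set with the lowest mean value of 3, and the other 2 gave 0.03 and 0.13. The copy eif4e3.L had 0.87 ± 0.68, with overlapping groups.

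**Figure D2:**
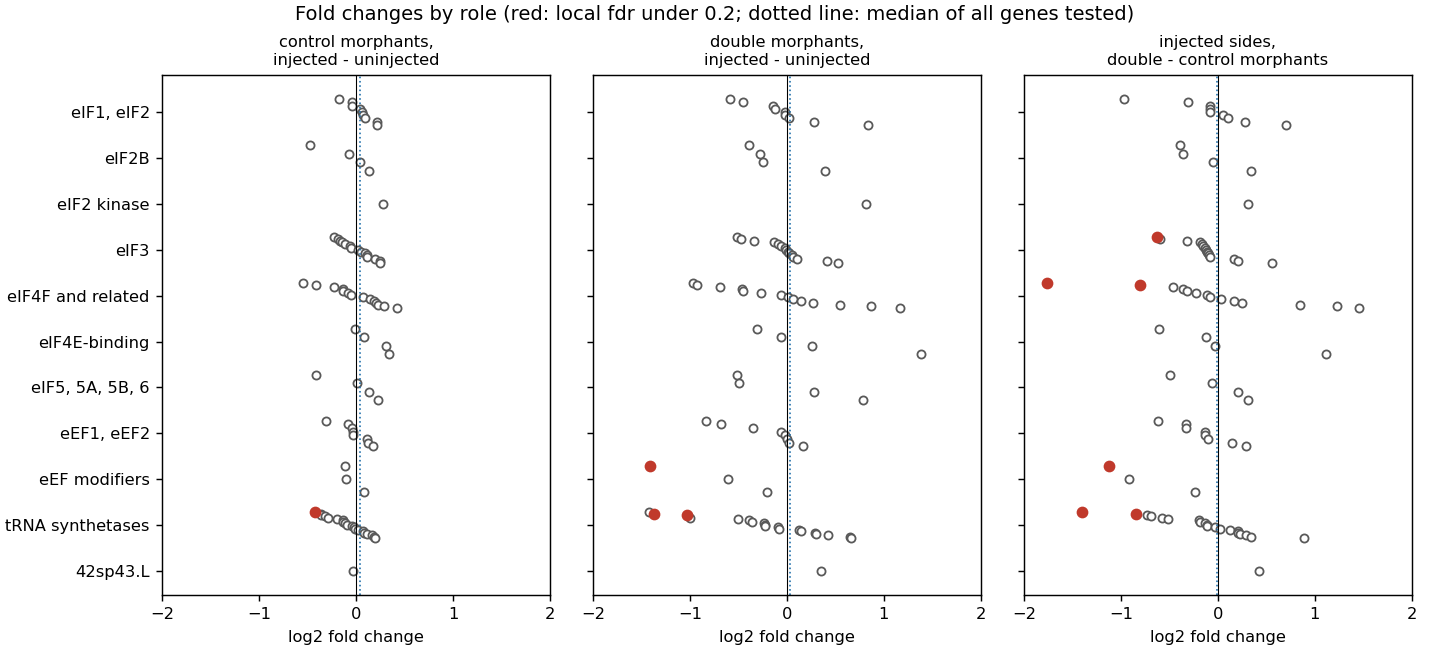
Log2 fold change of each of the 83 genes by role in control morphants, in double morphants and between the injected sides, with called genes in red. The dotted line is the median of all 8219 genes tested. Values of control morphants lie between -0.55 and 0.42, those of double morphants between -1.43 and 1.38. Over all genes tested they lie between -3.47 and 2.15 in control morphants and between -3.96 and 3.35 in double morphants.

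The factors of the first steps of initiation showed smaller values. The 9 genes grouped with eIF1 and eIF2 by symbol include eif1ad.L, eif2a.S and eif2d.S, which do not encode parts of these factors. None of the 9 was called, with a median of -0.03. The eIF1 relative eif1b.L, which helps to select the start codon, stood at 7.63 and 7.54 on injected sides of double morphants, above the 6.68 to 7.17 of the other 6 arrays. Its log2 fold change was 0.84 ± 0.21 (local fdr 0.658), at the dimmest of its 3 probe sets, while the other 2 gave 0.28 each. The copy eif1b.S had 0.28 ± 0.21. The 4 subunits of the exchange factor eIF2B lay between -0.39 (eif2b3.L) and 0.39 (eif2b1.L). Of the 15 genes of eIF3 subunits tested, with chromosome copies counted separately, none was called in double morphants. Of these, 8 were negative and the range was -0.52 to 0.53. The subunit eif3d.S had 0.02 ± 0.15. Among eIF5, eIF5A, eIF5B and eIF6 the 4 genes lay between -0.51 for eif5a.L and 0.79 for eif5b.L, which joins the ribosomal subunits and was named after its values were seen. The other 2 probe sets of eif5a.L gave 0.37 and -0.18, so its direction turned with the probe set. The GTPase activator eif5.S had 0.28.

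The RNA-activated kinase of eIF2, eif2ak2.L (PKR), was the only eIF2 kinase gene above the filter and gave a result that turned on its probe set. The more variable of 2 probe sets, which was used, was dim, with values of 3.33 to 5.10 and overlapping groups, and its log2 fold change was 0.81 ± 0.55. The brighter probe set stood at 5.27 and 5.27 on uninjected and 5.66 and 5.79 on injected sides of control morphants. In double morphants it stood at 4.90 and 4.68 on uninjected and 6.04 and 5.91 on injected sides. There the injected sides were the highest and the uninjected sides the lowest of all groups, with a log2 fold change of 1.18 (local fdr 0.00427 in the fit of all 10811 probe sets, of which 2.35% were called). In the same fit this probe set had 0.46 in control morphants (local fdr 0.269). The difference between its injection effects was 0.72 (local fdr 0.143, with 3.02% of all probe sets called). The RNA of 42sp43.L, whose protein binds 5S rRNA in the storage particles of young oocytes, stood between 4.05 and 5.14 and had 0.35 ± 0.36.

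Control morphants gave the background of an injection with an unrelated morpholino. There 1 of 83 members was called, lower, against 3.98% of all genes (3.08% lower). It was the methionyl-tRNA synthetase mars1.L, at 8.32 and 8.35 on uninjected and 7.93 and 7.89 on injected sides of control morphants. In double morphants it was at 8.53 and 8.34 on uninjected and 8.17 and 8.21 on injected sides. The 2 injected pools of control morphants were the lowest of the 8 arrays, though the log2 fold change was only -0.43 ± 0.15 (limma adjusted p = 0.959, local fdr 0.0624). A smaller statistic sufficed here than in double morphants, because the empirical null had an SD of 0.866 in control morphants and 1.72 in double morphants. It was not called with the pairs as a block (local fdr 0.442, 3.55% of all genes called) or with the experiment as a block (0.365, 2.51%). The median over the members was -0.01, against 0.04 over all genes, and 82 of 83 were not called. At the ends stood the helicase cofactors eif4b.S, with -0.55 ± 0.39, and eif4h.L, with 0.42 ± 0.20. The other probe sets of eif4b.S gave -0.09, 0.05 and -0.02. Near the lower end were also the eIF2B subunit eif2b3.L (-0.48), the germline cap-binding protein gene eif4e1b.S (-0.42) and eif5a.L (-0.41), none of them called. Neither eif4e1b.S (0.01) nor eif5a.L (0.07 and 0.16) was negative at its other probe sets. Of the tissue markers, 1 of the 7 neural plate genes (nrp1.L included) was called in control morphants, with a median of -0.48 over the list. The cement gland genes had a median of -0.66 with 0 called. The medians were 0.07 for epidermis, -0.31 for mesoderm and muscle and 0.04 for endoderm, with 0 called.

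**Figure D3:**
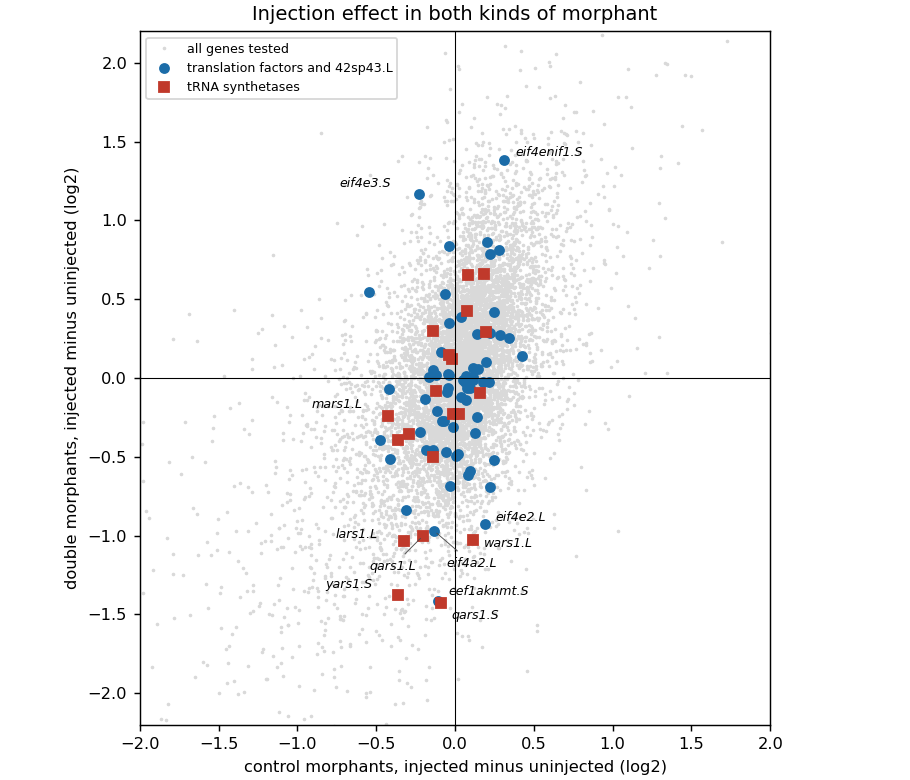
Injection effect (log2, injected minus uninjected) of each gene in control morphants on the horizontal and in double morphants on the vertical axis, at equal scales. Grey dots are all genes tested, of which 94 lie outside the axes, and no member does. Members spread along the vertical axis from -1.43 to 1.38 and along the horizontal axis from -0.55 to 0.42. All genes also spread more in double morphants. Of the 8219 genes, 1553 were more than 0.5 higher and 1424 more than 0.5 lower there, against 433 and 680 in control morphants. Of the 83 members these were 10 and 16, against 0 and 1.

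The difference between the injection effects of double and control morphants uses all 8 arrays, and so shares its arrays with both comparisons above. Here 6 of 83 members were called, 1 higher and 5 lower, against 3.16% of all genes (1.2% higher, 1.96% lower). The 1 higher gene was eif4e3.S, at 1.39 ± 0.32 (limma adjusted p = 0.574, local fdr 0.00914). The lower genes were qars1.S (-1.34 ± 0.44), eef1aknmt.S (-1.31 ± 0.32, local fdr 0.0118), eif4e2.L (-1.12 ± 0.37), yars1.S (-1.02 ± 0.35) and eif4a2.L (-0.84 ± 0.28). No member had an adjusted p under 0.05, and 3 members higher (3.61%, all genes 2.88%) and 8 lower (9.64%, all genes 3.61%) had an unadjusted p under 0.05. The median over the members was -0.09, against 0.02 over all genes. Blocking on the pairs left eef1aknmt.S and eif4e2.L called, against 1.57% of all genes, and blocking on the experiment 0 members, against 0.73%. Leaving out 1 array at a time gave between 0 and 7 called members. The calls of eif4e3.S and eef1aknmt.S were kept in 6 and 5 of 8 omissions, and those of the other 4 genes in 1 or 2. The count was 0 when replicate 1 of the uninjected sides of control morphants was left out. Members with large but uncalled differences were eif4b.S (1.09 ± 0.55), eif4enif1.S (1.07 ± 0.42) and wars1.L (-1.14 ± 0.45). The other probe sets of eif4b.S gave differences of 0.13, -0.17 and 0.12.

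The injected sides of double and control morphants were also compared directly. There 6 of 83 members were called, all lower, against 5.6% of all genes (3.19% lower). At an unadjusted p under 0.05 there were 5 members higher (6.02%, all genes 8.01%) and 12 lower (14.5%, all genes 9.47%). The largest difference was that of eif4e2.L, the cap-binding protein 4EHP, which cannot join eIF4G and represses translation. It stood at 6.61 and 6.46 on injected sides of control morphants and at 4.57 and 4.97 on injected sides of double morphants, a log2 fold change of -1.76 ± 0.26 (limma adjusted p = 0.0614, local fdr 0.00045). Its uninjected sides stood at 6.45 and 6.24 in control morphants and at 5.40 and 5.996 in double morphants. The uninjected sides therefore also lay apart, by -0.65, without being called. A second probe set of eif4e2.L, with higher values on every array, did not show the difference, with 0.25 between the injected sides.

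The other genes called lower between the injected sides were qars1.S (-1.40 ± 0.31), eef1aknmt.S (-1.13 ± 0.23), lars1.L (-0.85 ± 0.19), eif4a2.L (-0.81 ± 0.20) and eif3a.L (-0.62 ± 0.15). The gene eif3a.L encodes the largest subunit and scaffold of eIF3. At the probe set used, it stood at 11.25 and 11.30 on injected sides of control morphants and at 10.59 and 10.72 on injected sides of double morphants, without overlap. Its call, like that of eif4a2.L, was kept in 2 of 8 omissions, whereas that of eif4e2.L was kept in 8. The 8 probe sets of eif3a.L ranged from -0.62 to 0.13 in this comparison, and eif3a.S had -0.32 ± 0.23. Highest stood eif4b.S, with 1.46 ± 0.39 (local fdr 0.327) at the probe set used and -0.20 to 0.41 at the other 3. With the experiment as a block 2 members were called, eif4b.S higher (local fdr 0.0359) and eif4e2.L lower (local fdr 0.158), against 2.73% of all genes. By adjusted p under 0.05 that block gave 5 members higher (6.02%, all genes 7.21%) and 11 lower (13.3%, all genes 8.19%), together 19.3% against 15.4% of all genes. The median over the members was -0.11, against -0.01 over all genes, and 54 of 83 were negative.

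The uninjected sides of double and control morphants, which carried no morpholino, gave no called member, against 2.47% of all genes. At an unadjusted p under 0.05 there were 0 members higher (1.56% of all genes) and 1 lower (1.52%), and none had an adjusted p under 0.05 (limma). The median over the members was 0.02, against -0.03 over all genes. At the brighter probe set of eif2ak2.L the uninjected sides differed by -0.48 (local fdr 0.0558 in the fit of all probe sets, 2.64% called). Blocking on the experiment also gave 0 called members, against 2.08% of all genes.

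For 16 genes both copies were tested, and 12 of these pairs had the same sign in double morphants. Only 4 pairs lay more than 0.5 apart and 1 more than 1, which was eif4enif1. The widest of the other gaps was that of mars1, with -0.24 for mars1.L and 0.65 for mars1.S. Among the 27 genes with several probe sets above the filter, 17 had probe sets of only one sign in double morphants, 10 spanned more than 0.5 and 1 spanned more than 1, which was eif4e3.S. The probe sets of yars1.S, qars1.S, eef2.1.L and eif4g1 went the same way. Those of eif4e3.S, eif4e2.L and eif3a.L did not all show the effect of the one used. Between the injected sides the probe sets of yars1.S ran from -0.74 to -0.04, and those of qars1.S from -1.40 to -0.88.

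Differences between the 2 experiments are given as a description and were not tested. The median of the 4 group differences, replicate 2 minus replicate 1, exceeded 1 in size for 2 of 83 genes, eif2s1.S and eif3b.L. The difference of eif2s1.S was larger than any injection effect among the members. The gene encodes eIF2α, the subunit that the eIF2 kinases phosphorylate. Its most variable probe set stood at 10.99 to 11.30 in replicate 1 and at 6.48 to 7.66 in replicate 2, a median difference of -3.86. A further 2 of its 5 probe sets went the other way in every group, from 7.53 to 8.56 in replicate 1 to 10.21 to 10.86 in replicate 2. The remaining 2 probe sets lay between 8.88 and 10.08 on all arrays. Within either experiment the probe set used moved by 0.27 and by -1.18 between the sides of double morphants.

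**Figure D4:**
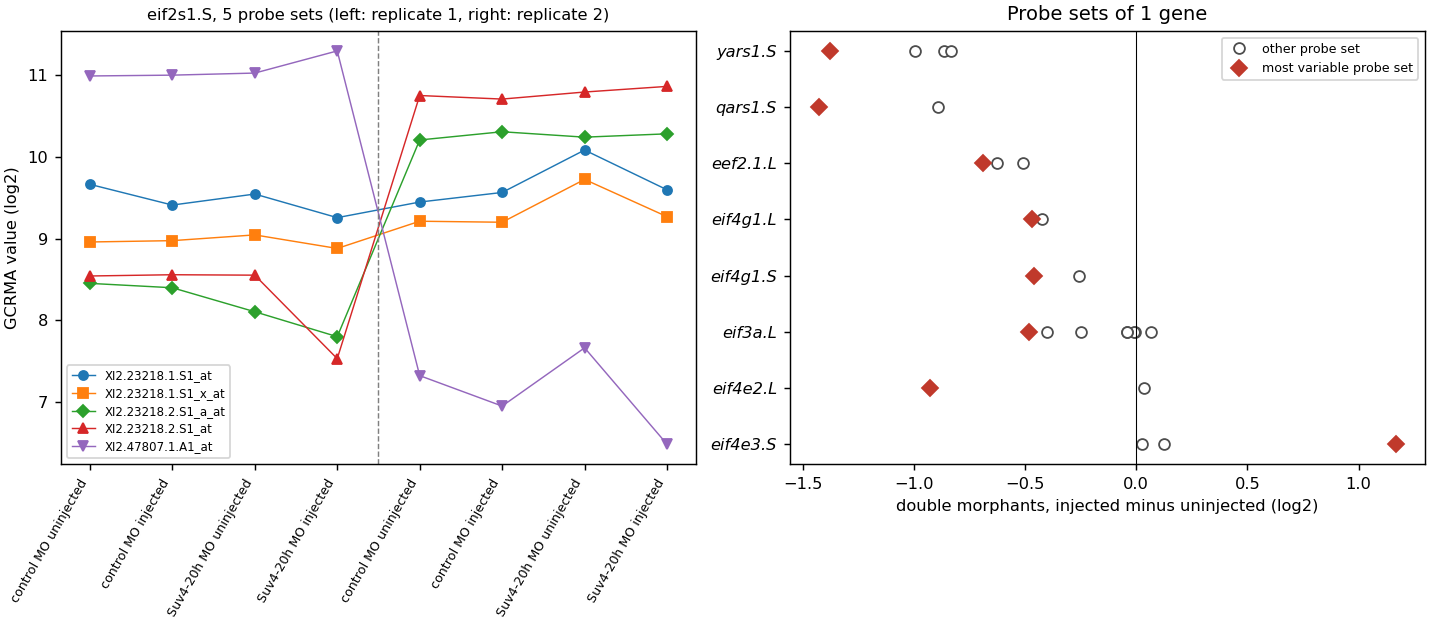
Left, log2 values of the 5 probe sets of eif2s1.S on the 8 arrays, with replicate 1 left and replicate 2 right of the dashed line; lines only join points of a probe set. Right, log2 fold change in double morphants at every probe set above the filter for 8 genes, with the probe set used as a diamond. The 4 probe sets of yars1.S are all negative, whereas the effects of eif4e3.S and eif4e2.L rest on 1 of their probe sets each. The called genes eef1aknmt.S, lars1.L, eif4a2.L and mars1.L are not shown. They had a single probe set above the filter, so no other could be compared.

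The subunit eif3b.L differed between the experiments by -1.03 at the probe set used, and by -0.32 and 0.18 at the other 2. At the dim probe set of eif2ak2.L replicate 2 was higher in all 4 groups (0.93), but at the brighter one it was higher in 1 group (-0.07). For eif3j.S replicate 2 was higher in all 4 groups at both probe sets, by 0.91 at the one used and 0.18 at the other. With a single probe set each, kars1.L (0.66) was higher and qars1.L (-0.63) lower in all 4 groups. Of all members 29 were higher and 18 lower in replicate 2 in all 4 groups, which is 34.9% and 21.7%, against 27.9% and 26.3% of all genes tested. In double morphants 63 of 83 members had the same sign in both experiments (75.9%, all genes 80.4%). The member medians were -0.05 in either experiment.

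Genes that work with the translation factors were examined from lists by function. Blocks, omitted arrays and other probe sets were examined for members only. How far the calls of these partner genes depend on them was not tested. Of 28 measured partners of cytosolic translation, 0 were called in double morphants (1.62% of all genes) and 1 in control morphants, lower (3.08% of all genes): gcn1.L, whose protein activates the eIF2 kinase GCN2, with -0.53 ± 0.21 (local fdr 0.137). Between the injected sides the poly(A)-binding protein gene pabpc4.L was the 1 called, lower (3.19% of all genes), with -1.25 ± 0.30 (local fdr 0.126). Of 14 measured genes of the integrated stress response and mTOR signalling 1 was called lower in double morphants, against 0.986% of all genes. This was mknk1.S, the kinase that phosphorylates eIF4E.

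The RNA of mknk1.S stood at 5.499 and 5.81 on uninjected and 5.43 and 5.15 on injected sides of control morphants, and at 5.14 and 5.58 on uninjected and 3.64 and 3.79 on injected sides of double morphants. The injected sides of double morphants lay below every other array, with a log2 fold change of -1.64 ± 0.23 (limma adjusted p = 0.0765, local fdr 0.0114). It was also called in the difference between the injection effects (-1.28 ± 0.32) and between the injected sides (-1.57 ± 0.23). The sestrin gene sesn1.L, an inhibitor of mTOR signalling, was called higher in control morphants, as were 74 of all 8219 genes, with 2.06 ± 0.45 (local fdr 0.00042), and in double morphants it had 1.93 ± 0.45 (local fdr 0.556). The difference between these effects was -0.13 ± 0.63. In control morphants no gene tested, sesn1.L and gcn1.L included, had an adjusted p under 0.05 (limma).

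Of 8 measured mitochondrial factors none was called in double morphants, and between the uninjected sides 1 was called lower (1.05% of all genes). This was rars2.S, the mitochondrial arginyl-tRNA synthetase, at 7.75 and 7.69 in control morphants and 7.15 and 6.98 in double morphants (-0.65 ± 0.15, local fdr 0.000391). But no gene tested had an adjusted p under 0.05 (limma) between the uninjected sides. The empirical null had an SD of 0.813 there, so a smaller statistic sufficed than in double morphants (SD 1.72). The 13 measured oocyte and maternal genes include the members eef1a1o.L and eef1a1o.S. Of the 13, 0 were called in double morphants and 2 were higher between the injected sides (2.41% of all genes). These were the mRNA-binding protein gene ybx2.L, with 1.41 ± 0.22 (local fdr 0.00117), and zar1.S, with 1.99 ± 0.44 (local fdr 0.115). The injected sides of double morphants were the highest for both genes, at 7.74 and 7.55 for ybx2.L and at 5.69 and 4.45 for zar1.S.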

How the data were processed

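Expression was measured on 8 Affymetrix *Xenopus laevis* arrays. The deposited values are log2 expression values that the authors calculated with GCRMA (version not given in the sources used here); a probe set shared by gene copies, and dim probe sets near the floor, limit what a value means. Genes were named from the platform table supplied with the values: 15505 probe sets had 1 gene, 279 several and 16851 none. The authors' filter on present calls needs raw intensities. Here a group mean of 4 or more on the log2 scale took its place. Probe sets without variance were dropped and the most variable probe set per gene was kept, as in the methods, leaving 8219 genes.

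In R 4.3.3, limma 3.58.1 fitted 4 group means to all arrays (4 residual and 2.08 prior degrees of freedom). Calls took a local fdr under 0.2 on the moderated t, as in the methods, from a rewritten estimator (maximum likelihood empirical null, 120 bins, spline with 7 degrees of freedom). It was run on simulated arrays with independent noise. That run cannot show how well the local fdr holds here, where deviations of arrays of an experiment were correlated. Benjamini-Hochberg adjusted p-values over all genes stand beside the local fdr. The methods do not name the contrast. With 2 arrays per group, a local fdr is a rough guide and not a bound on wrong calls, and the small number of arrays limits precision. Comparisons share arrays.

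Sides of the same kind of morphant and number come from corresponding embryos, per the methods, so the numbers pair them. Deviations from group means correlated by 0.77 between sides of control and 0.65 of double morphants, and by 0.80 and 0.69 between equal sides of both. Unlike sides of both, which are not pairs, also correlated. The value was 0.69 for uninjected control with injected double morphants, and 0.50 for injected control with uninjected double morphants. These correlations therefore do not themselves show the pairing.

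Members and lists were chosen with earlier results of these data known. Named genes were those called in any comparison, the 5 highest and 5 lowest in double morphants, control morphants and their difference, the 3 with the largest experiment difference in each direction, the gene of each role whose kept (most variable) probe set had the highest mean, their other chromosome copies, 42sp43.L, and called genes of the partner lists.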

Additional observations from a re-analysis of the deposited data

Results flagged for a closer look

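In 6 translation genes the injection effect was called different between double and control morphants without a block (local fdr under 0.2 for the difference itself). The log2 difference was 1.39 for the cap-binding protein gene eif4e3.S, -1.31 for the eEF1A methyltransferase gene eef1aknmt.S, -0.84 for the helicase gene eif4a2.L, -1.12 for the 4EHP gene eif4e2.L, -1.34 for the glutaminyl-tRNA synthetase gene qars1.S and -1.02 for the tyrosyl-tRNA synthetase gene yars1.S. When the paired sides of corresponding embryos entered the fit as a block, only eef1aknmt.S and eif4e2.L remained called, and with the replicate block 0 of the 6. None had an adjusted p under 0.05. Other probe sets gave 0.09 for eif4e2.L and 0.06 and 0.22 for eif4e3.S. With only 2 arrays per group, single arrays far from the others of their group could not be sought.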

How the results depend on the processing

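Called members numbered 1 in control morphants, 6 in the difference between the injection effects, 3 in double morphants, 6 between the injected sides and 0 between the uninjected sides. With pairs of sides as a block these were 0, 2 and 1 in the first 3 comparisons, and with the replicate block 0, 0, 0, 2 and 0. Adjusted p under 0.05 gave 0 throughout without a block. With the pairs as a block, an alternative added after seeing the data, it gave 26 in double morphants and 0 in the other 2 comparisons, and with the replicate block 21 in double morphants, 16 between the injected sides and 0 elsewhere. An intensity trend gave counts of 1, 4, 2, 5 and 0 (3.41%, 2.24%, 0.779%, 4.82% and 1.89% of all genes). But in double morphants it called eef2.1.L and eif4a2.L and none of eef1aknmt.S, yars1.S and lars1.L. The theoretical null gave 0, 2, 18 and 16 in the first 4 comparisons, where it called 1.65%, 2.83%, 20.9% and 15.8% of all genes. With z values the count was 0 in each of these. Of all genes they called 0.949% in control morphants and 0% in the difference, in double morphants and between the injected sides. Without the filter on low values the counts were 6, 16, 14, 20 and 6, over 10272 genes. Of all these genes 8.69%, 11.5%, 10%, 15% and 6.97% were called there, so calls rose in all genes and not only in the members. The probe set with the highest mean gave 4 in double morphants, 3 in the difference, 3 between the injected sides and 1 between the uninjected sides. The shares of all genes were 1.63%, 2.79%, 4.93% and 2.49% in that order. With it eif2ak2.L was called higher in double morphants and in the difference, where eif4e3.S, eif4e2.L, qars1.S and yars1.S were not called. Between the injected sides eif3a.L, eif4e2.L and qars1.S lost their calls. The mean of all probe sets (also added later) and quantile normalization gave 3 each in the difference (2.59% and 2.86% of all genes).

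The median over the members moved to 0.0075 in control morphants with the probe set of highest mean and to -0.0874 in double morphants with quantile normalization. Leaving out 1 array at a time, counts ran from 0 to 1 in control morphants, 0 to 7 in the difference, 0 to 3 in double morphants, 1 to 8 between injected and 0 to 2 between uninjected sides. Medians ran from -0.0227 to 0.0419, from -0.1384 to -0.0391, from -0.1112 to -0.0063, from -0.1627 to -0.0767 and from -0.0476 to 0.021 in the same order. In double morphants 0 members were called without replicate 1 of the injected and 1 without replicate 2 of the uninjected sides. The mars1.L call in control morphants was lost without any of the 4 arrays of control morphants.

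At the probe set with the highest mean, eif3a.L turned to 0.0422 between the injected sides, and eif4e2.L to 0.0894 in the difference and 0.2487 between the injected sides. No other value called in the fit used throughout changed direction under the settings run. Most settings could not change one. Blocks, other nulls, z values, adjusted p and the intensity trend leave the fold change itself as it was. The genes eef1aknmt.S, lars1.L, eif4a2.L and mars1.L had a single probe set above the filter, so for them the choice among such probe sets could not change it either. Values called only under another setting were not all checked in this way. One of them, eif4b.S, was called higher between the injected sides with the replicate block. Its probe set with the highest mean gave -0.20 there. The cause of these changes was not tested.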
